A study of Homo sapiens with 3 samples.

Results

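The insulin-like growth factor (IGF) system was examined in NCI-H1975, an established human lung adenocarcinoma cell line. The 10 genes described are the ligands IGF1 and IGF2, the decoy receptor IGF2R and the binding proteins IGFBP1 to IGFBP7, chosen by name from the 60880 gene rows of the count file. The study set wild-type cells against cells resistant to anlotinib, an inhibitor of several receptor tyrosine kinases, by RNA-seq and by ATAC-seq, an assay of open chromatin, and took RNA-seq of resistant cells in which the transcription factor TFAP2A was knocked down. Values came from 1 RNA-seq library, wild-type replicate 2, whose label gives the cell state as wild type and no drug treatment. The cells were cultured in RPMI medium with fetal calf serum. Neither chromatin data (2 wild-type ATAC-seq samples) nor libraries of resistant or knockdown cells were analysed here, so the values describe the parental line alone.

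IGF1 and IGF2 are secreted growth factors that signal through the receptor tyrosine kinase IGF1R, and IGF2 also binds one form of the insulin receptor INSR. IGF2R has no kinase: it takes up IGF2 for degradation in lysosomes and carries enzymes tagged with mannose 6-phosphate to the same place. The binding proteins IGFBP1 to IGFBP6 hold IGFs with high affinity, limit their access to the receptor and prolong their life outside the cell, and proteases release the IGFs again. In lung cancer the IGF1R route is known as one by which cells can bypass inhibition of other receptor kinases.

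The wild-type cells held many reads of IGF2R and of 4 binding proteins, and almost none of either ligand. Of the 10 genes, 7 were detected, which here means that they had 10 counts or more. Among all 19052 protein-coding genes with a row 69.7% reached the same minimum, so the number detected was near the background. The same share is the background for each count of detected protein-coding genes in the lists below, and no list was tested against it. The library held 25012733 counts, and levels are given as CPM (counts scaled to a total of 1000000). A single count was worth 0.04 CPM, and a gene at 0 is given a rounded one-sided 95% limit of 3 counts, or 0.12 CPM, in place of an interval. Levels above 0 of the 10 IGF genes, and of some others, carry an exact two-sided 95% Poisson interval. Intervals of ratios and shares are exact 95% intervals of other kinds. All of these, like that limit, cover counting error only: there was no replicate and no test. No transcript lengths were used, and long transcripts yield more reads, so orders and ratios between genes compare reads only and not mRNA molecules.

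The 250 bases before the annotated start of 3 of these genes are shown first. They are the gene with the most reads (IGF2R), a strongly read binding protein (IGFBP6) and the detected binding protein with the fewest (IGFBP5). The choice does not follow from reads alone, since IGFBP2 had more counts than IGFBP6 (4666 against 4397). Whether these sequences bear on the levels was not tested. The sequences are from RefSeq on GRCh38.p14, read 5′ to 3′ on the strand of the gene. IGF2R lies at chr6:159968832-159969081 on the plus strand, IGFBP6 at chr12:53097417-53097666 on the plus strand and IGFBP5 at chr2:216695550-216695799 on the minus strand. Capitals mark matches to GCCNNNGGC, letters known to be bound by AP-2 factors, the family of TFAP2A. Of the 7 IGF genes with such a sequence, only 2 held a match, and both (IGFBP6 and IGFBP5) are shown here. The 3 sequences are therefore not representative of the IGF genes for these letters.
IGF2R: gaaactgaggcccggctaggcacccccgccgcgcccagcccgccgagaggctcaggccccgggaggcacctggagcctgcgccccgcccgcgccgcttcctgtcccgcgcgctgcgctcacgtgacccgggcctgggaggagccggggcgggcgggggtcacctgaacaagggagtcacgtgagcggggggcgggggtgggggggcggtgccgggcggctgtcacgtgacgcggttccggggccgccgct
IGFBP6: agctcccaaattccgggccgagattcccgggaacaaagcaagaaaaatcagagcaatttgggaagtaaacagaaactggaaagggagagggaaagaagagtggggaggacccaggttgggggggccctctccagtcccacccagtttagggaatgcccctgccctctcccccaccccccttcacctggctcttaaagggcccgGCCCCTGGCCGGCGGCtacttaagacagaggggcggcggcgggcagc
IGFBP5: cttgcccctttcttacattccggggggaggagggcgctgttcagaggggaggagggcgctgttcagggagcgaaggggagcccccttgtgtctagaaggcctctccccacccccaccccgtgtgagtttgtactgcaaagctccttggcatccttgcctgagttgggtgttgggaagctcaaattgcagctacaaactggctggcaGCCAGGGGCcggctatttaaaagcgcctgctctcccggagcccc

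The ligands were at or near 0. IGF1, the growth factor made mainly by liver under growth hormone, had 4 counts, or 0.16 CPM (95% interval 0.0436 to 0.409). IGF2, the fetal and tumour growth factor encoded beside H19, had 0 counts, which allows up to 0.12 CPM. Both lay under the minimum of 10 counts, and together they had 4 counts. IGF2 shares exons with the read-through gene INS-IGF2, which was also at 0. How reads that overlap 2 genes were counted is not stated in the sources used here, so the 0 of IGF2 covers only reads assigned to that row. INS, the insulin gene next to it, was at 0, as were the antisense gene IGF2-AS and the microRNA gene MIR483, which lies inside IGF2. In the same imprinted region the long non-coding RNA H19 had 99 counts, or 3.96 CPM, and TH, the tyrosine hydroxylase gene on the other side of INS, had 150 counts, or 6.0 CPM.

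IGF2R had the most reads of the 10 genes. Its 9082 counts gave 363 CPM (356 to 371), more counts than 97.8% of the 17925 detected genes. M6PR, the smaller of the 2 receptors for mannose 6-phosphate, had 1229 counts, or 49.1 CPM, and the ratio of IGF2R to M6PR counts was 7.39 (6.96 to 7.85). Protein-coding genes near IGF2R were little read, with 0 counts for MAS1, and 0 and 51 counts for SLC22A2 and SLC22A3, which encode organic cation transporters. AIRN, a non-coding RNA that runs antisense through IGF2R, was at 0 counts. The high count of IGF2R was thus not shared by these 3 genes.

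The signalling receptors that IGF2R competes with for ligand were detected at lower read numbers. IGF1R, the main receptor of both IGFs, had 1886 counts, or 75.4 CPM (72.0 to 78.9). INSR had 1145 counts, or 45.8 CPM, and the ratio of IGF1R to INSR counts was 1.65 (1.53 to 1.77). INSRR, an orphan relative, was at 0. IGF2R had 4.82 times (4.58 to 5.06) the counts of IGF1R. Of the 4 receptor genes 3 were detected.

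The binding proteins held 13185 counts together, or 527 CPM (518 to 536), and 6 of 7 were detected. IGFBP2, which besides IGFs can bind integrins, had 4666 counts, or 187 CPM (181 to 192), more than 94.5% of detected genes. IGFBP6, which prefers IGF2 over IGF1, had 4397 counts, or 176 CPM (171 to 181), more than 94.1%. These were the highest pair, and the ratio of IGFBP2 to IGFBP6 counts was 1.06 (1.02 to 1.11). Their intervals lay side by side without overlap, but these cover counting error only, and without a replicate the order of the pair is not established. Together they took 68.7% (67.9 to 69.5, exact Clopper-Pearson interval) of the binding protein counts.

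IGFBP3 and IGFBP4 formed the middle of the family. IGFBP3, the main IGF carrier of blood and a known p53 target, had 2319 counts, or 92.7 CPM (89.0 to 96.6), more than 86.8% of detected genes. IGFBP4, an inhibitor of IGF action that is cut by the protease PAPPA, had 1363 counts, or 54.5 CPM (51.6 to 57.5), more than 77.4%. The ratio of IGFBP6 to IGFBP3 counts was 1.90 (1.80 to 1.99), and that of IGFBP3 to IGFBP4 was 1.70 (1.59 to 1.82). With IGFBP2 and IGFBP6 they took 96.7% (96.3 to 97.0) of the binding protein counts.

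The other 3 binding proteins were low or at 0. IGFBP7, which binds IGFs only weakly and is abundant in vessel walls, had 393 counts, or 15.7 CPM (14.2 to 17.3), more than 51.7% of detected genes and near their median of 14.4 CPM. IGFBP5, a binding protein of bone and muscle that attaches to extracellular matrix, had 47 counts, or 1.88 CPM (1.38 to 2.50), more than 22.5% of detected genes. IGFBP1, a liver and decidua protein that insulin represses, was at 0, which allows up to 0.12 CPM. The ratio of IGFBP7 to IGFBP5 counts was 8.36 (6.17 to 11.6). IGFBP7-AS1, a gene annotated on the other strand beside IGFBP7, had 27 counts. The strand setting of the counting is not stated in the sources used here, so reads of this pair could not be told apart with certainty.

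**Figure D1:**
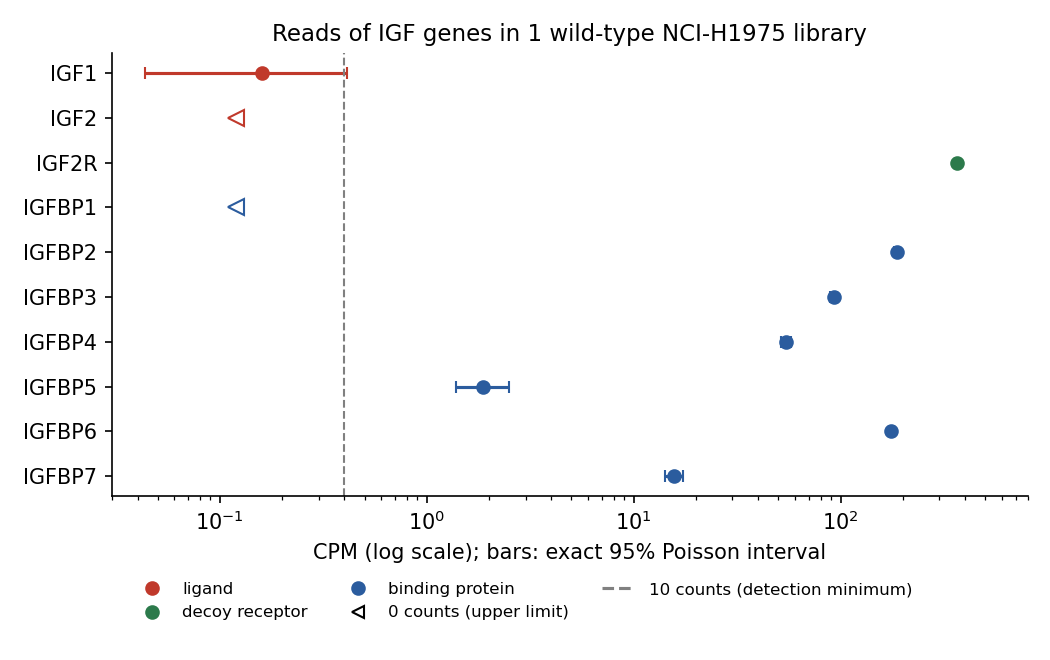
CPM of each gene on a log axis in the 1 library, with bars for the exact 95% Poisson interval, open triangles for 0 counts at the one-sided limit of 0.12 CPM, and a dashed line at 10 counts. IGF2R sits highest at 363 CPM, IGFBP2, IGFBP6, IGFBP3 and IGFBP4 follow between 187 and 54.5 CPM, and IGF1, IGF2 and IGFBP1 lie left of the line.

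**Figure D2:**
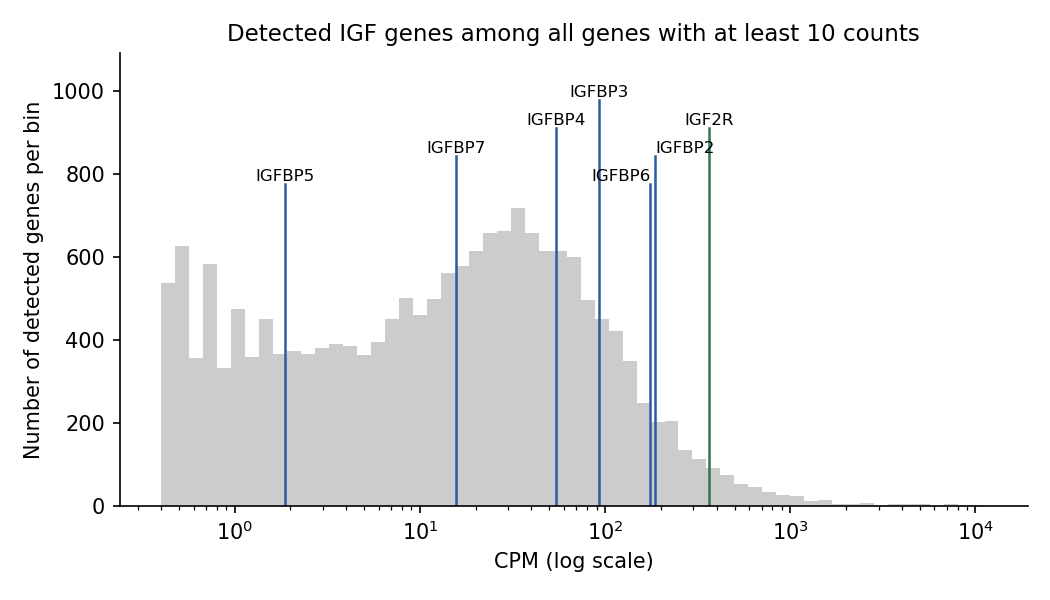
Number of detected genes by CPM (log axis, genes with at least 10 counts), with a vertical line at each of the 7 detected IGF genes. IGFBP5 at 1.88 CPM lies left of the bulk, IGFBP7 at 15.7 CPM near the median of 14.4 CPM, and IGF2R at 363 CPM in the right tail.

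The median over all 10 genes, those at 0 included, was 35.1 CPM, beside 9.83 CPM over all protein-coding genes with a row. The spread within the family was wide in relation to that difference, from 0 to 363 CPM.

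Adjacent pairs of binding protein genes were split. In the order of genes on GRCh38.p14, IGFBP2 and IGFBP5 are adjacent protein-coding genes on chromosome 2, and IGFBP1 and IGFBP3 are adjacent on chromosome 7. IGFBP2 had 99.3 times (74.5 to 135) the counts of IGFBP5. IGFBP3 had at least 773-fold higher counts than IGFBP1, taking IGFBP3 at its count and IGFBP1 at the one-sided limit of 3 counts. On their other sides, IGFBP2 is followed outward by the ribosomal protein gene RPL37A with 15159 counts and IGFBP3 by the tensin gene TNS3 with 8271 counts, whereas IGFBP5 adjoins TNP1, a sperm protein gene, at 0 and IGFBP1 adjoins CCDC201 at 0. In both pairs the member read strongly thus lay beside another strongly read gene and the low member beside a gene at 0. IGFBP4 lies between TOP2A, with 6348 counts, and TNS4, with 585, and IGFBP6 between SPRYD3, with 1765, and SOAT2, with 10.

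Of the 10 genes 7 had promoter windows in the RefSeq table, 10 windows in all. IGF2, IGFBP1 and IGFBP7 had none. The palindrome GCCNNNGGC was searched on both strands in the 250 bases before each start. It was found in windows of 2 genes, IGFBP6 and IGFBP5, beside 23.4% of 22198 windows of protein-coding genes. IGFBP6 held 2 overlapping matches that begin 47 and 40 bases before the start, and IGFBP5 held 1 that begins 44 bases before it. The match was therefore present in a binding protein gene with 4397 counts and in one with 47, and these letters were in none of the windows of IGF2R, IGFBP2, IGFBP3, IGFBP4 and IGF1. A TATAAA box was found in 1 window, that of IGFBP4, 29 bases before the start, beside 9.01% of all windows.

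The windows also differed in base composition. IGF2R had 79.2% G and C with 33 CpG dinucleotides, IGFBP3 had 76% with 32, and IGFBP4 had 71.6% with 24. IGFBP6 and IGFBP5 had 61.2% each, with 9 and 8 CpG. The 3 windows of IGFBP2 had 4, 7 and 22 CpG, and the 2 windows of IGF1 had 0 and 1, with 39.6% and 44% G and C. The median window of protein-coding genes had 62% and 16 CpG. Among 1011 genes whose richest window had at most 1 CpG, as in IGF1, 15.2% were detected, against 87% of the 9389 genes with at least 16. Among all 5848 genes with fewer than 16, which include IGFBP6 and IGFBP5, 45.6% were detected. Whether CpG number bears on the levels of the IGF genes was not tested. IGF2R, IGFBP3, IGFBP4 and, by 1 of its 3 windows, IGFBP2 were on the CpG-rich side, and IGFBP6 was strongly read with a window below the median.

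**Figure D3:**
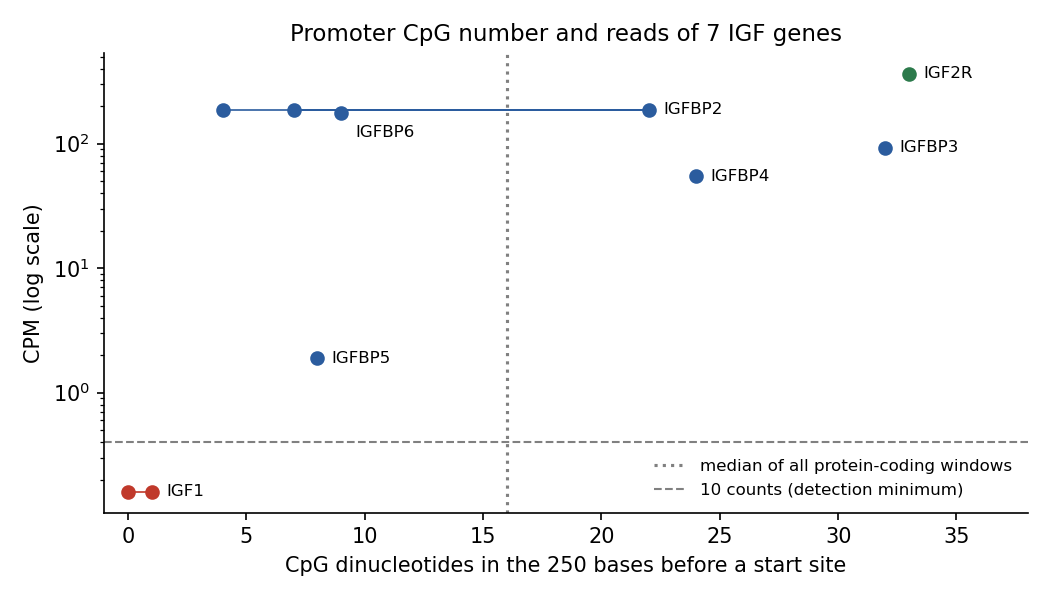
CPM (log axis) of the 7 IGF genes with a promoter window against the number of CpG dinucleotides in the 250 bases before a start, with lines joining several windows of 1 gene and a dotted line at the median of 16. IGF1 lies at the lower left with 0 and 1 CpG, IGF2R at the upper right with 33, and IGFBP6 and IGFBP5 lie side by side at 9 and 8 CpG with 176 and 1.88 CPM.

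Genes related to the binding proteins by sequence or by weak IGF binding were read as well. Of 13 such genes, IGFBP7 included, 8 were detected, beside 69.7% of all protein-coding genes. The matricellular proteins CCN5 and CCN1 had 3089 and 2962 counts, or 123 and 118 CPM, the secreted serine protease HTRA1, whose amino end resembles the binding proteins, had 2808 counts, or 112 CPM, and CCN2 had 646 counts. CCN4 and HTRA3 had 6 counts each, and CCN6 and ESM1 were at 0. IGFALS, the liver protein that joins IGFBP3 or IGFBP5 and an IGF in the large complex of blood, had 6 counts.

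Proteases that cut the binding proteins were present in part. Of 16 listed, 10 were detected, beside 69.7% of all protein-coding genes. They were led by urokinase PLAU with 22814 counts, or 912 CPM, and the lysosomal cathepsin CTSD with 11671 counts, or 467 CPM. ADAM9 had 5037 counts and the tissue activator PLAT 1126. PAPPA, the protease that cuts IGFBP4 in the presence of IGF, had 209 counts, or 8.36 CPM (7.26 to 9.57). PAPPA2, KLK2, KLK3, MMP7 and the plasminogen gene PLG were at 0, and MMP3 had 5 counts. All 4 listed inhibitors were detected, among them the metalloproteinase inhibitor TIMP1 with 4135 counts and the stanniocalcins STC2 and STC1, which block PAPPA, with 3400 and 879 counts, or 136 and 35.1 CPM. PAPPA had 0.0615 (0.0532 to 0.0707) of the counts of STC2.

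Below the receptors, 11 of 12 adaptors and substrates were detected. GRB10, an adaptor that restrains IGF1R and INSR, had 6708 counts, or 268 CPM, SHC1 had 6074, or 243 CPM, and the docking protein IRS1 had 4163, or 166 CPM. PTPN1, a phosphatase of these receptors, had 3075, and IRS4 was at 0. The ratio of IRS1 to IRS2 counts was 4.37 (4.07 to 4.69). Of 6 genes of the growth hormone axis, which drives IGF1 in liver, 4 were detected: STAT5B with 2109 counts, STAT5A with 219, JAK2 with 75 and PRLR with 12. The receptor gene GHR and the hormone gene GH1 were at 0 beside the 4 counts of IGF1.

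The sorting machinery around IGF2R was read throughout. All 4 genes of mannose 6-phosphate tagging and recognition other than IGF2R were detected: GNPTG with 1653 counts, NAGPA with 1280, M6PR with 1229 and GNPTAB, the catalytic subunit of the tagging enzyme, with 659. All 14 genes that sort the receptor between Golgi, endosome and surface were detected, led by PLIN3 with 10999 counts, AP1B1 with 9985, SNX5 with 3397 and PACS1 with 3324. All 16 lysosomal enzymes that carry or can carry the tag were detected, between 698 and 16713 counts. They were led by CTSB with 16713, CTSD with 11671, GAA with 6676 and IDS with 4985, the last of which has a similar pseudogene and is less certain.

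Partners that bind IGF binding proteins at the cell or in the matrix were detected in 9 of 10 cases. Fibronectin FN1 had 34838 counts, the integrin subunits ITGA5 and ITGB1 had 13665 and 9959, and LRP1, a receptor of IGFBP3, had 11568. TF, the transferrin gene, was at 0. Of the 3 mRNA-binding proteins named for IGF2 mRNA, IGF2BP3 had 1770 counts, or 70.8 CPM, IGF2BP2 had 1700, or 68.0 CPM, and IGF2BP1 was at 0. The ratio of IGF2BP3 to IGF2BP2 counts was 1.04 (0.974 to 1.11), an interval that includes equal counts, beside 0 counts of IGF2 itself.

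**Figure D4:**
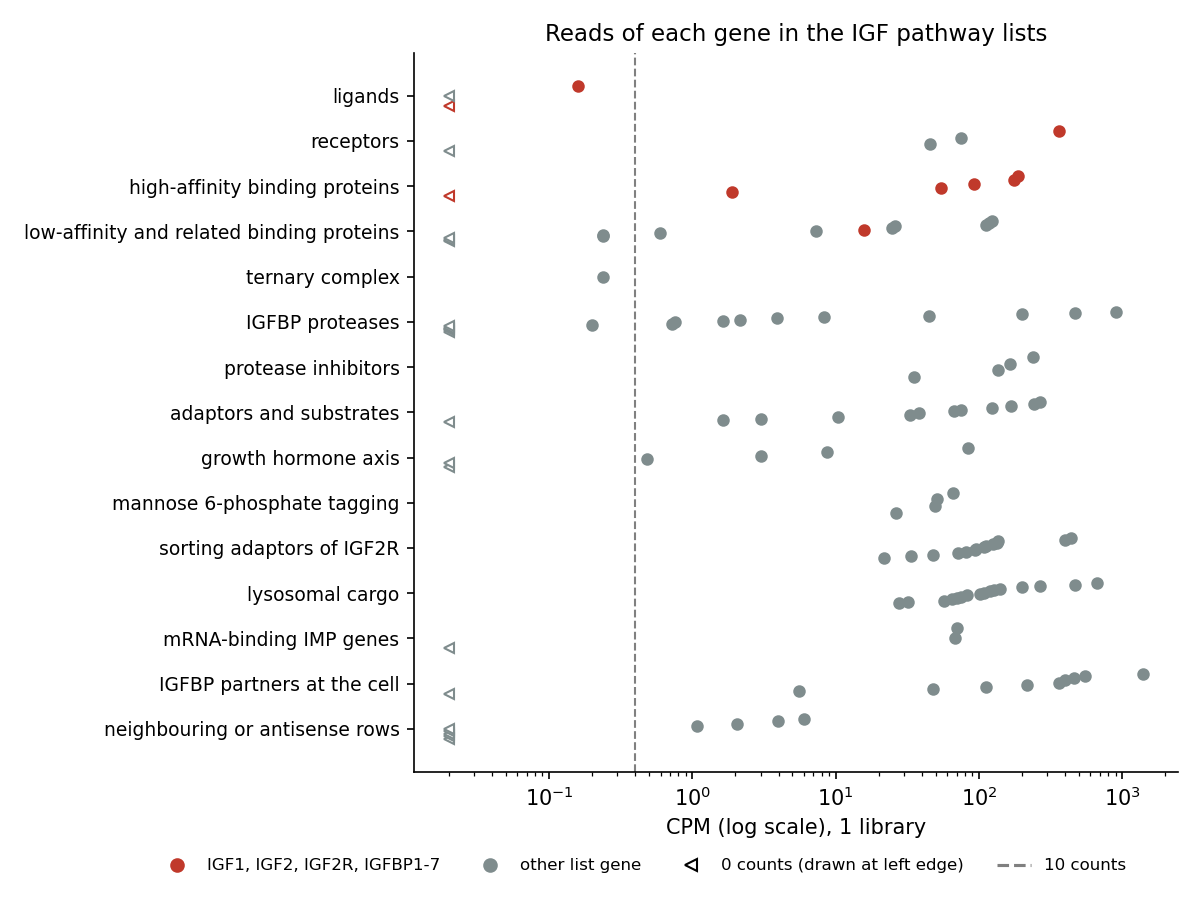
CPM of each gene (log axis, 1 library) in 15 lists around the IGF system, with the 10 IGF genes in red, other genes in grey, open triangles at the left edge for 0 counts and a dashed line at 10 counts. All genes of the sorting, tagging, cargo and protease inhibitor lists lie right of the line, and the ligand list lies left of it.

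The label of an epithelial lung line was read against markers of this and other cell types, since fibroblasts, endothelium and liver are known sources of these genes. All 6 epithelial markers were detected, with KRT8, KRT19, KRT18 and CLDN4 between 20412 and 65584 counts. All 3 lung lineage markers were detected too, NKX2-1 with 2926 counts, FOXA2 with 849 and SFTPB with 62, or 2.48 CPM. The keratins have pseudogenes, and their separate values are less certain. Of 6 fibroblast markers COL1A1 and COL1A2 had 7847 and 4104 counts, COL3A1 had 2, and DCN, LUM and PDGFRA were at 0. Of 5 endothelial markers CDH5 had 340 counts and VWF had 10, and CLDN5, EMCN and TIE1 were at 0. The 4 leukocyte markers held 4 counts in all, and of the 3 liver markers ALB had 3 and APOA1 and TTR were at 0. The sample is a culture of an established cell line and not a tissue. Whether other cells had any part in the counts of IGFBP4, IGFBP5 and IGFBP7 was not tested.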

How the data were processed

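The values are the authors' deposited read counts: whole numbers, 1 per Ensembl gene, without normalisation. Per the submitters' processing notes the build was hg19, and featureCounts and STAR are among the tools named, without roles. Which annotation and strand setting were used, and how reads that map or overlap more than once were treated, is not stated in the sources used here. Per the labels' protocols, total RNA from Trizol went into a directional NEBNext library.

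Identifiers were matched without version to current symbols: 56373 of 60880 rows, holding 99.8% of counts, and each of the 10 genes matched 1 row. Biotypes and gene order came from a RefSeq table (GRCh38.p14), and the 250 bases before each start from RefSeq promoters of that build. Counts were divided by the library total to CPM. Intervals are exact 95% Garwood (levels), Clopper-Pearson (shares) and conditional (ratios). Reads are not independent molecules. The interval code was tested on simulated counts.

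The 10 genes and 21 lists (147 genes, all with a row) were chosen with earlier results of these data known. All 10 genes are named, with the 4 highest and up to 4 genes under 10 counts of each list, and all receptors, tagging genes and neighbouring rows. A few genes that the rule would name are left out here. Other list members, the gene neighbours, the ratios beyond IGFBP2 to IGFBP6, IGF2R to M6PR and IGF1R to INSR, and the CpG counts were added after values were seen. With 1 library, p-values and genes of similar pattern could not be had. Protein features and values per kilobase, which had been planned, were not computed, since no protein sequences or transcript lengths were used here. Alternatives were other minimums and other totals. The tools were SciPy 1.17.1, pandas 2.3.3 and NumPy 2.4.6 under Python 3.11.15, with figures from Matplotlib 3.10.9.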

Additional observations from a re-analysis of the deposited data

How the results depend on the processing

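With a minimum of 1 count, 8 of the 10 IGF genes were detected (IGF1 added), with 50 counts 6 (IGFBP5 left out), and with 1 CPM 7. The lists whose number moved beyond 1.5 times at 1 count were ligands (1 detected), IGFALS (1), leukocyte markers (3) and liver markers (1). Endothelial markers numbered 1 at 50 counts and 1 at 1 CPM. Other totals scale all CPM alike and leave counts, ratios and shares as they are. Without mitochondrial genes (factor 1.06) the binding proteins together had 557 CPM, IGF2R 384, IGFBP2 197, IGFBP6 186, IGFBP3 98.0 and IGFBP4 57.6. Without the 10 genes with the highest counts (factor 1.08) these were 567, 391, 201, 189, 99.8 and 58.6 CPM. Over protein-coding genes only, the binding proteins had 574 CPM. IGF1, IGFBP5 and IGFBP7 stayed inside their intervals under both of the first totals. IGF2 and IGFBP1, with 0 counts, are at 0 CPM under any total. Values per kilobase were not run. No paired analysis was possible because the counts come from a single library. Depth limits IGF1, IGF2 and IGFBP1, whose levels are not resolved under 10 counts.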

Other observations

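Families with similar names or folds, chosen after the values above were seen, were little read. The IGF-like genes IGFL1, IGFL2, IGFL3 and IGFL4 had 0, 1, 0 and 1 counts, and their receptor IGFLR1 had 7. Of the relaxin family, hormones of the insulin fold, INSL3 was detected with 52 counts, or 2.08 CPM (1.55 to 2.73). RLN2 and RLN1, similar genes whose separate values are less certain, had 9 and 2 counts, and INSL4, INSL5, INSL6 and RLN3 were at 0. Among the relaxin receptors RXFP4 had 6 counts, and RXFP1, RXFP2 and RXFP3 were at 0. The sites of GCCNNNGGC were in 26.3% of windows of genes with at least 10 counts and in 15.8% of windows of genes under it, in windows that also differ in CpG number.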
